A study of Homo sapiens with 20 samples.

Results

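RNA granules were compared with exosomes in control HEK293 cells, a human embryonic kidney line. Members were chosen by their titles, and 10 of the 20 libraries of the series belonged here: 5 of control granules, which the labels call cytoplasmic RNA granule cores, and 5 of control exosomes. Both fractions came from cells of the control treatment. The other 10 libraries, from HD-induced cells (HD stands for Huntington's disease), enter only where granules and exosomes of that state are set beside these. The design text asks how the RNA of exosomes and granules differs. The sources used here do not say how the cells were kept as controls, or whether a granule and an exosome library with the same number shared a culture.

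RNA granules are condensed bodies of protein and RNA, not bounded by a membrane, that hold mRNAs away from translation, and stress granules and P-bodies are the best known of them. Exosomes are small vesicles that form inside late endosomes and are released when these fuse with the cell surface, carrying RNA out of the cell. A retained-intron transcript is one annotated with an intron still in place. Such RNAs are usually held in the nucleus or degraded and are not expected to make the full protein.

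The libraries held 17.4 to 38.4 M estimated reads (M, mega) in control granules and 8.99 to 15.6 M in control exosomes, of which 11.4 to 24.5 M and 5.30 to 9.04 M lay on named transcripts. Entries that carry only a sequence identifier took the other 24.9% to 59.2% of reads in granules and 36.7% to 46.3% in exosomes. Of 10 markers of HEK293 cells, IGF2BP1, VIM, KRT8, KRT18 and LIN28B were well detected, and the list summed to 761 to 914 CPM (read counts scaled to a common library size with TMM) in granules and 1894 to 2065 CPM in exosomes. The kidney factors PAX2 and LHX1 were near 1 CPM in both, and LIN28A and SOX11 were at 0 in all 5 granule libraries and near 0 in exosomes.

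Expected counts were summed per gene and compared with edgeR's quasi-likelihood test, and a gene was called at a Benjamini-Hochberg adjusted p under 0.05. Of 14777 genes tested, 9227 (62.4%) were called, 4431 (30.0%) higher in control granules and 4796 (32.5%) higher in control exosomes. When TPM was tested with limma, the split moved to 2389 higher in granules and 4459 higher in exosomes, so that granule-high genes were 34.9% of those calls. At 4-fold or more, 847 called genes were higher in granules and 723 in exosomes. In 7259 genes (49.1%) all 5 libraries of one fraction lay above all 5 of the other. With most genes called, a single call says little about a gene, and shares called of a group are read below against these backgrounds. The median log2 fold change of granules over exosomes was -0.02 over all genes, and 0.09 to 0.11 with other size factors, so median changes of that size are not read as a direction.

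Transcripts that keep an intron took a larger part of the granule RNA. Retained-intron transcripts took 8.09%, 7.53%, 8.42%, 8.66% and 7.28% of named reads in control granules 1 to 5, against 3.55%, 3.18%, 3.47%, 3.26% and 3.24% in control exosomes 1 to 5. The fractions did not overlap, and the lowest granule library stood above the highest exosome library by more than the spread of either. The means were 7.99% ± 0.58 and 3.34% ± 0.16 (SD, n = 5 each), a ratio of 2.39. Protein-coding transcripts showed the opposite, at 77.5% ± 1.66 in granules and 86.6% ± 0.53 in exosomes. In exact 2-sided permutation tests, both differences had p = 0.00794, the smallest that 5 against 5 libraries allow, and 0.0101 after adjustment over 14 transcript types. By summed TPM, which divides by length, neither passed (retained introns, a difference of 0.819 percentage points, adjusted p = 0.0778; protein-coding, adjusted p = 0.0617), and by share of all reads, unnamed entries included, the protein-coding difference did not (adjusted p = 0.730).

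Of the 14 types, 12 passed this test. The guide RNAs of RNA modification had the largest ratios: snoRNAs took 1.30% ± 0.31 in granules and 0.0235% ± 0.0092 in exosomes, and scaRNAs 0.329% ± 0.061 and 0.00682% ± 0.00176. Coding-gene transcripts with no defined reading frame took 2.54% ± 0.14 in granules and 2.06% ± 0.08 in exosomes, a difference that did not pass by share of all reads (adjusted p = 0.0778, exact permutation test) and turned to -0.508 percentage points by summed TPM (adjusted p = 0.0617). Transcripts marked for nonsense-mediated decay, the pathway that removes mRNAs with an early stop codon, were only slightly higher, at 3.75% ± 0.20 against 3.51% ± 0.09 (adjusted p = 0.0463, exact permutation test). Leaving out any library but granule 2 ended this call (adjusted p 0.0556 to 0.102), as did the share of all reads (adjusted p = 0.417), and by summed TPM the difference turned to -0.737 percentage points (adjusted p = 0.0222, exact permutation tests). Processed pseudogenes took less in granules, 0.237% ± 0.022 against 0.360% ± 0.048. The shares of lncRNAs and snRNAs did not pass (adjusted p = 0.171 and 0.357, exact permutation tests). The snRNA share was uneven, with 2.24% and 1.75% in granules 3 and 5 and 0.194% to 0.229% in granules 1, 2 and 4, against 1.12% to 2.06% in exosomes.

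**Figure D1:**
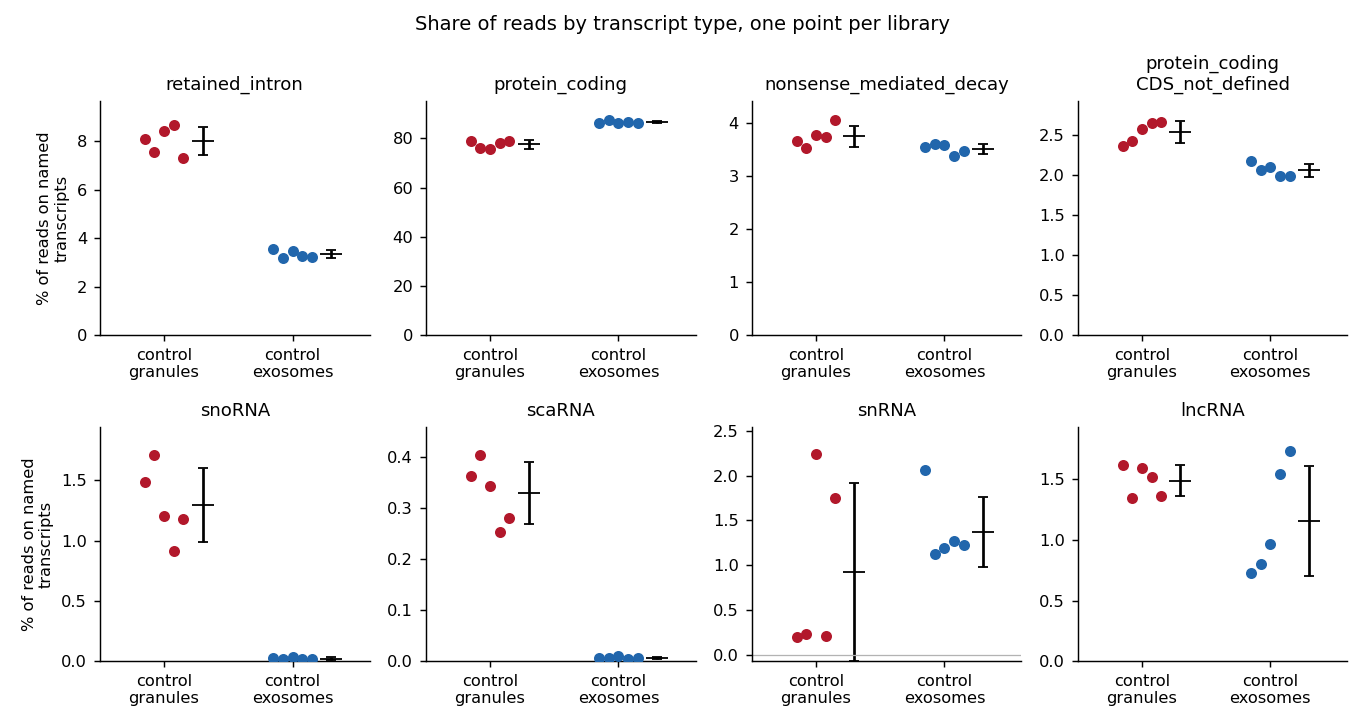
Share of reads on named transcripts (y axis, percent) for 8 transcript types, with a point for each library of control granules (left, red) and control exosomes (right, blue) and the mean ± SD beside them. Retained-intron, snoRNA and scaRNA shares of all 5 granule libraries lie above those of all 5 exosome libraries, protein-coding shares lie below, and snRNA and lncRNA shares overlap.

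The same contrast was then asked within genes, so that a gene's own level drops out. Counts were summed per gene and transcript type, and each such unit was tested against the rest of its gene with edgeR's diffSpliceDGE. Of 16800 units, 3698 (22.0%) were called, 2941 (17.5%) taking a larger part of their gene in granules and 757 (4.51%) a smaller part. Among 4589 retained-intron units, 2114 took a larger part in granules and 40 a smaller part. Their median share of the gene's reads was 15.9% in granules and 4.76% in exosomes, and the mean share was higher in granules for 4069 of them. Retained-intron transcripts made up over 50% of the gene's reads for 456 genes in granules and for 95 in exosomes. With no filter on low counts, 2164 of 9048 retained-intron units were larger in granules and 73 smaller. Units scarce in exosomes could pass that filter through the granule libraries alone, so the counts and shares above describe the tested units.

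Other types leaned less to one side. Protein-coding units took a larger part in granules in 31 cases and a smaller part in 344 of 6726, with median shares of 78.4% in granules and 88.8% in exosomes. Units with no defined reading frame were larger in 461 and smaller in 130 of 2533. Nonsense-mediated decay units were larger in 330 and smaller in 237 of 2864, with medians of 11.4% in granules and 10.4% in exosomes. Since the parts of a gene sum to its whole, a rise of a gene's retained-intron part and a fall of its coding part are not separate results.

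**Figure D2:**
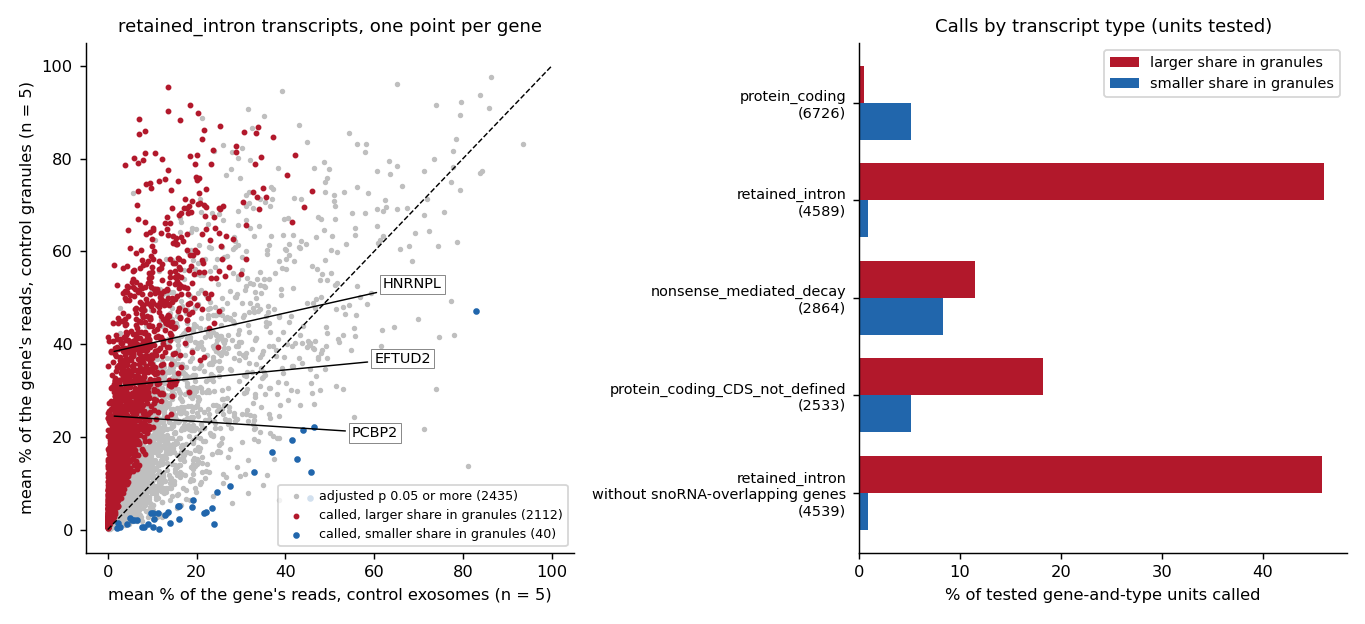
Left, mean share of each gene's reads on retained-intron transcripts in control granules (y axis, percent) against control exosomes (x axis, percent), with called genes in red or blue, the line of equal shares dashed and 2 called genes without a share in some library not drawn. Right, percent of tested units of each transcript type called as a larger (red) or smaller (blue) part of their gene in granules. Most called genes lie far above the line, PCBP2 at 24.5% against 0.656% among them, and retained-intron units show the longest red bar.

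The units with the smallest p showed how far apart the fractions were. PCBP2, a poly(C)-binding protein of the hnRNP K family, had 19.7%, 20.7%, 27.0%, 26.3% and 28.9% of its reads on retained-intron transcripts in granules 1 to 5, against 0.476%, 0.405%, 0.565%, 0.992% and 0.842% in exosomes 1 to 5 (adjusted p = 1.8e-15). HNRNPL, a splicing regulator, had 34.4%, 32.7%, 40.2%, 35.1% and 48.9% in granules, against 0.708%, 0.816%, 0.598%, 0.203% and 0.929% in exosomes (adjusted p = 2.6e-13). In both genes nearly every exosome read lay on other transcripts, and no library came near the other fraction.

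The same held for genes with quite different tasks. The retained-intron share of EEF1A1, the factor that brings tRNAs to the ribosome, averaged 23.1% ± 4.14 in granules and 0.548% ± 0.264 in exosomes. That of EFTUD2, a GTPase of the U5 snRNP, averaged 30.9% in granules and 1.91% in exosomes. YARS1, the tyrosyl-tRNA synthetase, stood at 34.2% and 1.94%. HSPA9, the mitochondrial Hsp70, stood at 29.5% in granules and 4.08% in exosomes, and KPNA2, a nuclear import adaptor, at 41.01% and 2.68%. For VIM, which encodes the filament protein vimentin, the called unit was of the nonsense-mediated decay type, with 10.9% in granules and 0.468% in exosomes.

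Units that took a smaller part in granules included coding transcripts. SRSF11, an SR-rich splicing factor, had 10.3% of its reads on protein-coding transcripts in granules and 47.4% in exosomes.

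TRA2B, a splicing activator whose gene holds an exon that introduces an early stop, differed also in its decay-marked part. Its nonsense-mediated decay unit was at 0% in all 5 granule libraries, against 13.96%, 27.3%, 28.3%, 26.2% and 23.4% in exosomes 1 to 5 (adjusted p = 3.1e-16). Its retained-intron unit stood at 84.7% ± 2.87 in granules and 37.2% ± 5.003 in exosomes. Decay-marked units of TOX4 and NARS1 were also nearly confined to exosomes in these libraries, at 0.315% and 0.142% in granules, against 39.9% and 18.1%. EIF3E, EEF1G and TNPO2 completed the units of this direction.

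Some retained-intron transcripts lie over snoRNA genes, whose reads they could take. Of 34052 retained-intron transcripts, 28591 were matched to GENCODE release 29, and 134 of them overlapped a snoRNA or scaRNA gene. These 134 took 0.403% ± 0.014 of named reads in granules and 0.229% ± 0.023 in exosomes. All other retained-intron transcripts, those not matched to release 29 included, took 7.59% ± 0.58 and 3.11% ± 0.17. Overlap of the unmatched transcripts with snoRNA genes was not tested. Without the genes of the 134 transcripts, a choice made after the data were seen, 2081 of 4539 retained-intron units were larger in granules and 39 smaller. Reads of unspliced precursor RNA would also be assigned to these transcripts, and their part was not tested.

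Among single transcripts, 14132 of 42932 (32.9%) were called, 8242 (19.2%) higher in granules and 5890 (13.7%) higher in exosomes. Of 8201 retained-intron transcripts, 3263 were higher in granules and 197 in exosomes, at a median log2 fold change of 1.89. Transcripts scarce in exosomes could pass the filter on low counts through the granule libraries alone. These figures therefore describe the tested transcripts. Of 26131 protein-coding transcripts, 3317 were higher in granules and 4995 in exosomes, at a median of -0.10. With a replicate block the split was 4918 higher in granules and 4629 in exosomes, with edgeR throughout. Under the rule for large and separate changes, 227 noncoding or decay-marked transcripts were higher in granules and 101 in exosomes. The rule admitted only types that already leaned to granules, such as lncRNAs with 291 of 993 transcripts higher in granules and 21 in exosomes. No share over all transcripts is given beside it, so the split is not a separate result. The foremost transcripts under the rule had no read in 1 of the fractions, so their folds are lower bounds from a floor of 3 counts over that fraction.

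The largest bound belonged to a lncRNA without a gene symbol, which ranged from 1981 to 12904 CPM in exosomes with no granule read. SNHG1-231, a transcript of a snoRNA host gene, stood at 127, 113, 129, 154 and 110 CPM in granules 1 to 5 and at 0 in all exosomes, at least 1374-fold higher. DNAJC10-215, a retained-intron transcript of an endoplasmic reticulum co-chaperone, averaged 117 ± 43.8 CPM in granules (at least 1266-fold higher). PFDN4-202, COX6C-206 and SRSF1-204, all of the nonsense-mediated decay type, averaged 93.3, 91.9 and 77.8 CPM in granules, against 0 in exosomes. LINC00632-226 was at 20.2 and 23.8 CPM in granules 1 and 2 and at 123 to 210 CPM in granules 3 to 5. In the other direction, TRA2B-205 averaged 76.2 ± 21.3 CPM in exosomes with no granule read (at least 2026-fold lower in granules). ACTG1-213 ranged from 54.3 to 1150 CPM in exosomes, also with no granule read. Division of reads among overlapping transcripts is an estimate whose error the files do not give, and a value of 0 can be such an estimate.

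Among the protein-coding genes with the largest fold changes toward exosomes were RAB13, NET1, TRAK2 and KIF1C. They encode a vesicle-transport GTPase, an activator of RhoA, an adaptor for mitochondrial transport and a kinesin motor, and their mRNAs are known from fibroblasts as RNAs that collect in cell protrusions. RAB13 (chromosome 1, 153981650 to 153990708, GRCh38.p14) had 16.3, 22.0, 18.9, 30.2 and 22.8 CPM in granules 1 to 5, against 1285, 1155, 1348, 1530 and 1433 CPM in exosomes 1 to 5. All exosome values were far above all granule values, and the log2 fold change was -5.93 ± 0.20 (SE; edgeR adjusted p = 7.1e-09).

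NET1 (chromosome 10, 5412557 to 5459056) had 137, 138, 154, 144 and 175 CPM in granules, against 2139, 1954, 1981, 2259 and 2490 CPM in exosomes, a log2 fold change of -3.86 ± 0.14. TRAK2 averaged 41.6 ± 7.98 CPM in granules and 1336 ± 276 in exosomes (-5.004 ± 0.201). KIF1C averaged 54.8 ± 16.03 CPM in granules and 2603 ± 820 in exosomes (-5.57 ± 0.30). No library of these genes overlapped the other fraction. This group of 4 was put together after its values were seen.

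The other leading exosome genes had varied tasks. ACTB, cytoplasmic beta-actin, had 366, 324, 235, 183 and 191 CPM in granules 1 to 5, against 4721, 2910, 2963, 4104 and 2528 CPM in exosomes 1 to 5 (-3.73 ± 0.27). COTL1, an actin-filament-binding protein, stood at -5.22 ± 0.29, and JUP, the junction protein plakoglobin, at -3.77 ± 0.33. SNX8, a sorting nexin, stood at -4.19 ± 0.30 and RASSF3, a Ras-association protein, at -4.02 ± 0.12. BCL2L2, an inhibitor of apoptosis, stood at -5.19 ± 0.26 and ZSWIM9 at -5.51 ± 0.39. All had edgeR adjusted p of 1.9e-06 or less, and their fold changes ranged from 13.3 to 61.1 together with those of the 4 genes above.

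**Figure D3:**
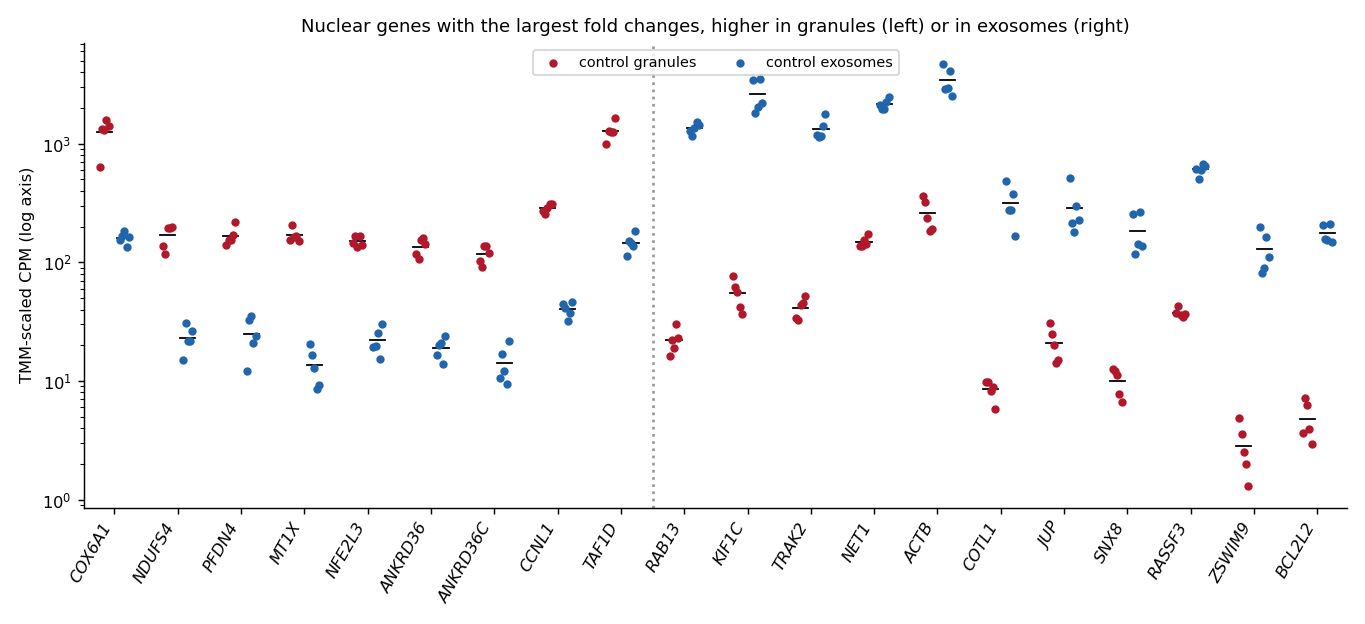
TMM-scaled CPM (y axis, log scale) of the nuclear genes with the largest fold changes, with a point per library of control granules (red) and control exosomes (blue, to the right of the red) and a line at each mean. The 9 genes on the left are higher in all 5 granule libraries and the 11 on the right in all 5 exosome libraries.

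The protein-coding genes with the largest fold changes toward granules had varied tasks, from respiration to metal binding. COX6A1, a subunit of cytochrome c oxidase (chromosome 12, 120438113 to 120440730), had 632, 1320, 1314, 1582 and 1423 CPM in granules 1 to 5, against 155, 167, 186, 134 and 163 CPM in exosomes 1 to 5 (2.96 ± 0.23, SE; adjusted p = 6.5e-07). Granule 1 was the lowest of its group but still above every exosome library. MT1X, a metallothionein that binds zinc and copper, had 153, 208, 163, 167 and 151 CPM in granules, against 20.6, 16.4, 12.8, 8.62 and 9.31 CPM in exosomes (3.62 ± 0.23). NDUFS4, a complex I subunit, stood at 2.87 ± 0.22, PFDN4, a prefoldin subunit, at 2.75 ± 0.26, and NFE2L3, a transcription factor, at 2.77 ± 0.18. ANKRD36C and ANKRD36 stood at 3.05 ± 0.23 and 2.83 ± 0.18, and reads of these near-identical paralogs can be exchanged.

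For some genes the direction rested on transcripts that are not coding. TAF1D, a subunit of an RNA polymerase I initiation factor, had 1002, 1272, 1255, 1266 and 1640 CPM in granules, against 112, 151, 145, 137 and 182 CPM in exosomes (3.15 ± 0.17). Its protein-coding transcripts took 0.274% of the gene's reads in granules and 10.8% in exosomes, and on protein-coding transcripts alone its log2 fold change was -1.85 (adjusted p = 0.0830). CCNL1, a cyclin linked to splicing, stood at 2.83 ± 0.12 on all transcripts and at 0.17 on protein-coding ones, with 96.2% of its granule reads and 65.1% of its exosome reads on retained-intron transcripts. IARS1, the isoleucyl-tRNA synthetase, was called higher in granules on all transcripts (0.95 ± 0.14; 0.59 by TPM with limma, adjusted p = 0.0655) and lower on protein-coding ones (-0.80, adjusted p = 0.0166). RPL4 stood at -1.13 ± 0.15 on all transcripts and at 0.80 on protein-coding ones (adjusted p = 0.444).

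A called reversal needs a call in both fits, which TAF1D and RPL4 did not have. Of 12704 genes in both fits, 8127 were called on all transcripts, 6851 were also called in the same direction on protein-coding transcripts alone, 32 were called in the opposite direction, and 1244 were not called on them. Of these 32, 21 were higher in granules on all transcripts and higher in exosomes on protein-coding ones, and 11 were the other way round.

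By mean TPM (abundance per length), ribosomal protein and histone genes were among the leaders of protein-coding RNA in both fractions. In exosomes MT-CO1, of the mitochondrial genome, stood second at 1698 ± 1269 TPM. Its mean was raised by exosome 3, at 17582 CPM against 3468 to 8049 CPM in the other exosome libraries. RPL41 stood at 6023 TPM in granules and 1157 in exosomes (log2 fold change 2.40 ± 0.20), and RPL39 at 6025 and 1667 TPM (1.87 ± 0.15). The histone genes H4C14, H3C2 and H2AC20 stood at 4565, 2330 and 2235 TPM in granules and at 2353, 606 and 585 TPM in exosomes. H3C15 was lower in granules, at 452 TPM against 1408 TPM in exosomes (-1.65 ± 0.41, adjusted p = 0.0039). Reads of near-identical histone copies cannot be told apart. RPL23 stood at 2307 TPM in granules and 1061 in exosomes (1.47 ± 0.20). RPS2, RPLP0 and RACK1, a ribosome-bound scaffold, were lower in granules at 553, 351 and 406 TPM, against 1556, 1245 and 1228 TPM in exosomes, with log2 fold changes of -1.53, -1.72 and -1.43.

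The genes of the translation machinery therefore divided. Of 85 tested ribosomal protein genes, 44 were higher in granules and 16 in exosomes, at a median log2 fold change of 0.71 against -0.02 for all genes. The short mRNAs RPS27 and RPS29 stood at 2.17 ± 0.18 and 1.90 ± 0.15 and the paralog RPL22L1 at 2.58 ± 0.18. RPL7A, RPL28 and RPL3 were lower in granules, at -1.93 ± 0.12, -2.07 ± 0.15 and -1.32 ± 0.11. Initiation factors leaned to exosomes, with 8 of 38 higher in granules and 23 in exosomes (median -0.91). EIF3I, a subunit of the initiation factor eIF3, was at 55.6 ± 3.42 CPM in granules and 446 ± 15.02 in exosomes (-3.004 ± 0.092), whereas another eIF3 subunit, EIF3M, was higher in granules (1.37 ± 0.22), although not by TPM with limma (0.63, adjusted p = 0.0887).

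No elongation or release factor was called higher in granules, and 6 of 10 were higher in exosomes. EEF2, which moves the ribosome along the mRNA, had 1885, 1278, 975, 802 and 872 CPM in granules 1 to 5, against 10924, 6721, 6228, 7662 and 5804 CPM in exosomes 1 to 5 (-2.68 ± 0.28). EEF1G stood at -2.53 ± 0.14 and EEF1A1 at -1.84 ± 0.17. Of 22 aminoacyl-tRNA synthetase genes and partners, 4 were higher in granules and 13 in exosomes, KARS1 at -1.71 ± 0.14 and EPRS1 at 1.06 ± 0.19 among them. Ribosome biogenesis factors were higher in granules in 5 and in exosomes in 21 of 37.

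Genes of the cytoskeleton leaned strongly to exosomes. Of 15 tubulin genes, 14 were higher in exosomes and 1, TUBE1, in granules (median -2.15). TUBA1B, an alpha-tubulin, averaged 271 ± 19.6 CPM in granules and 2272 ± 263 in exosomes (-3.07 ± 0.13), and TUBG1, the gamma-tubulin of microtubule nucleation, stood at -2.84 ± 0.15. Of 38 actin cytoskeleton genes, 3 were higher in granules and 27 in exosomes (median -1.08). MSN and EZR, which tie actin to the plasma membrane, stood at -2.66 ± 0.14 and -2.03 ± 0.11, and ARPC3, of the branching complex Arp2/3, was higher in granules at 2.29 ± 0.47 while its partner ARPC1A stood at -2.16 ± 0.11.

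Motor and centrosome genes did not follow. Of 58 kinesin and dynein genes, 18 were higher in granules and 22 in exosomes, both near the background, with DYNC2H1 at 1.49 ± 0.14 and DYNC1LI2 at -1.27 ± 0.11. Of 62 centrosome and cilium genes, 32 were higher in granules and 12 in exosomes (median 0.45), with CEP112 at 1.89 ± 0.17 and CEP350 at 1.49 ± 0.16.

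Enzymes of central metabolism leaned to exosomes. None of 17 glycolysis genes was called higher in granules and 15 were higher in exosomes (median -2.29). ENO1, the enolase, averaged 569 ± 29.3 CPM in granules and 3136 ± 69.5 in exosomes (-2.46 ± 0.11), and PKM, pyruvate kinase, stood at -3.04 ± 0.17. Tricarboxylic acid cycle genes were higher in granules in 2 and in exosomes in 14 of 21, with MDH2 at -2.40 ± 0.14 and CS, citrate synthase, at -1.64 ± 0.10. Of 31 genes of nucleotide and one-carbon metabolism, 0 were higher in granules and 22 in exosomes, including TK1, thymidine kinase, at -2.42 ± 0.17 and TYMS, thymidylate synthase, at -1.83 ± 0.11. Replication genes followed, with 8 of 38 higher in granules and 22 in exosomes, MCM7 at -2.25 ± 0.15 and RFC2 at -2.10 ± 0.10.

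The respiratory chain did not move as a whole. Of 75 nuclear-encoded genes, 46 were higher in granules and 17 in exosomes (median 0.88). Small subunits such as COX7A2 (2.13 ± 0.15), ATP5MK (1.80 ± 0.12) and NDUFB3 (1.72 ± 0.12) were higher in granules, while the core subunits UQCRC1 (-2.29 ± 0.13) and ATP5F1B (-1.49 ± 0.11) were higher in exosomes. Of 26 antioxidant genes, 6 were higher in granules and 13 in exosomes, from MT1X and MT2A (2.56 ± 0.28) to PRDX2, a peroxiredoxin, at -2.76 ± 0.15 and FTH1, the ferritin heavy chain, at -2.63 ± 0.13.

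Genes of vesicle traffic leaned to exosomes and those of protein entry into the endoplasmic reticulum to granules. Of 49 vesicle coat genes, 5 were higher in granules and 28 in exosomes, including SEC13 at -2.63 ± 0.13 and ARF1 at -2.36 ± 0.15. Rab GTPases were higher in granules in 4 and in exosomes in 26 of 53, and SNARE genes in 4 and 18 of 32. All 7 genes of the 14-3-3 adaptors were higher in exosomes (median -1.39, YWHAG at -1.81 ± 0.09). By comparison, 19 of 31 genes of the translocon, signal recognition and glycosylation were higher in granules and 3 in exosomes (median 0.64), with SEC61B, a channel subunit, at 1.66 ± 0.17 and SRP68 at -1.56 ± 0.12.

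Tested genes of cell-surface and secreted proteins were more often called higher in granules. Of 89 G protein-coupled receptor genes, 46 were higher in granules and 9 in exosomes (median 0.75). FZD6, a Wnt receptor, had 60.7, 69.5, 68.7, 74.3 and 72.4 CPM in granules, against 13.8, 13.8, 12.5, 16.1 and 13.3 CPM in exosomes (2.31 ± 0.12). Integrin and extracellular matrix genes were higher in granules in 30 and in exosomes in 6 of 62 (median 0.89), with ITGAV at 1.79 ± 0.13 and FBN2 at 1.71 ± 0.14. The collagen COL1A2 went the other way, at 0.0487 ± 0.0716 CPM in granules and 6.31 ± 1.98 in exosomes. Of 35 cadherins and protocadherins, 15 were higher in granules and 6 in exosomes, and CDH2, N-cadherin, stood at 1.35 ± 0.15. Solute carriers showed little lean, with 77 of 210 higher in granules and 59 in exosomes (median 0.13, and -0.09 by TPM), and SLC5A3, the myo-inositol carrier, stood at 2.43 ± 0.10. In this order, the lists of this paragraph held 184, 91, 105 and 349 genes. Members scarce in exosomes could pass the filter on low counts through the granule libraries alone. Their counts and medians therefore describe the tested genes and support no direction for the classes.

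RNA-binding and nuclear proteins were mixed. Of 48 RNA helicase genes, 2 were higher in granules and 28 in exosomes, and of 20 hnRNP genes 4 and 13, with HNRNPM at -2.81 ± 0.16 and HNRNPU at 1.26 ± 0.15. HNRNPU did not pass on protein-coding transcripts alone (0.16, adjusted p = 0.462) or by TPM with limma (0.24, adjusted p = 0.494). SR-family splicing factors were higher in granules in 12 and in exosomes in 5 of 24 (median 0.39), with SREK1 at 1.67 ± 0.12 and SRSF9 at -1.54 ± 0.10. On protein-coding transcripts alone this list turned, with 4 higher in granules and 9 in exosomes and a median of -0.18. Of 470 ZNF zinc finger genes, 172 were higher in granules and 114 in exosomes, and ZNF678 stood at 2.40 ± 0.12. Chromatin regulators showed no lean, with 32 and 29 of 88.

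**Figure D4:**
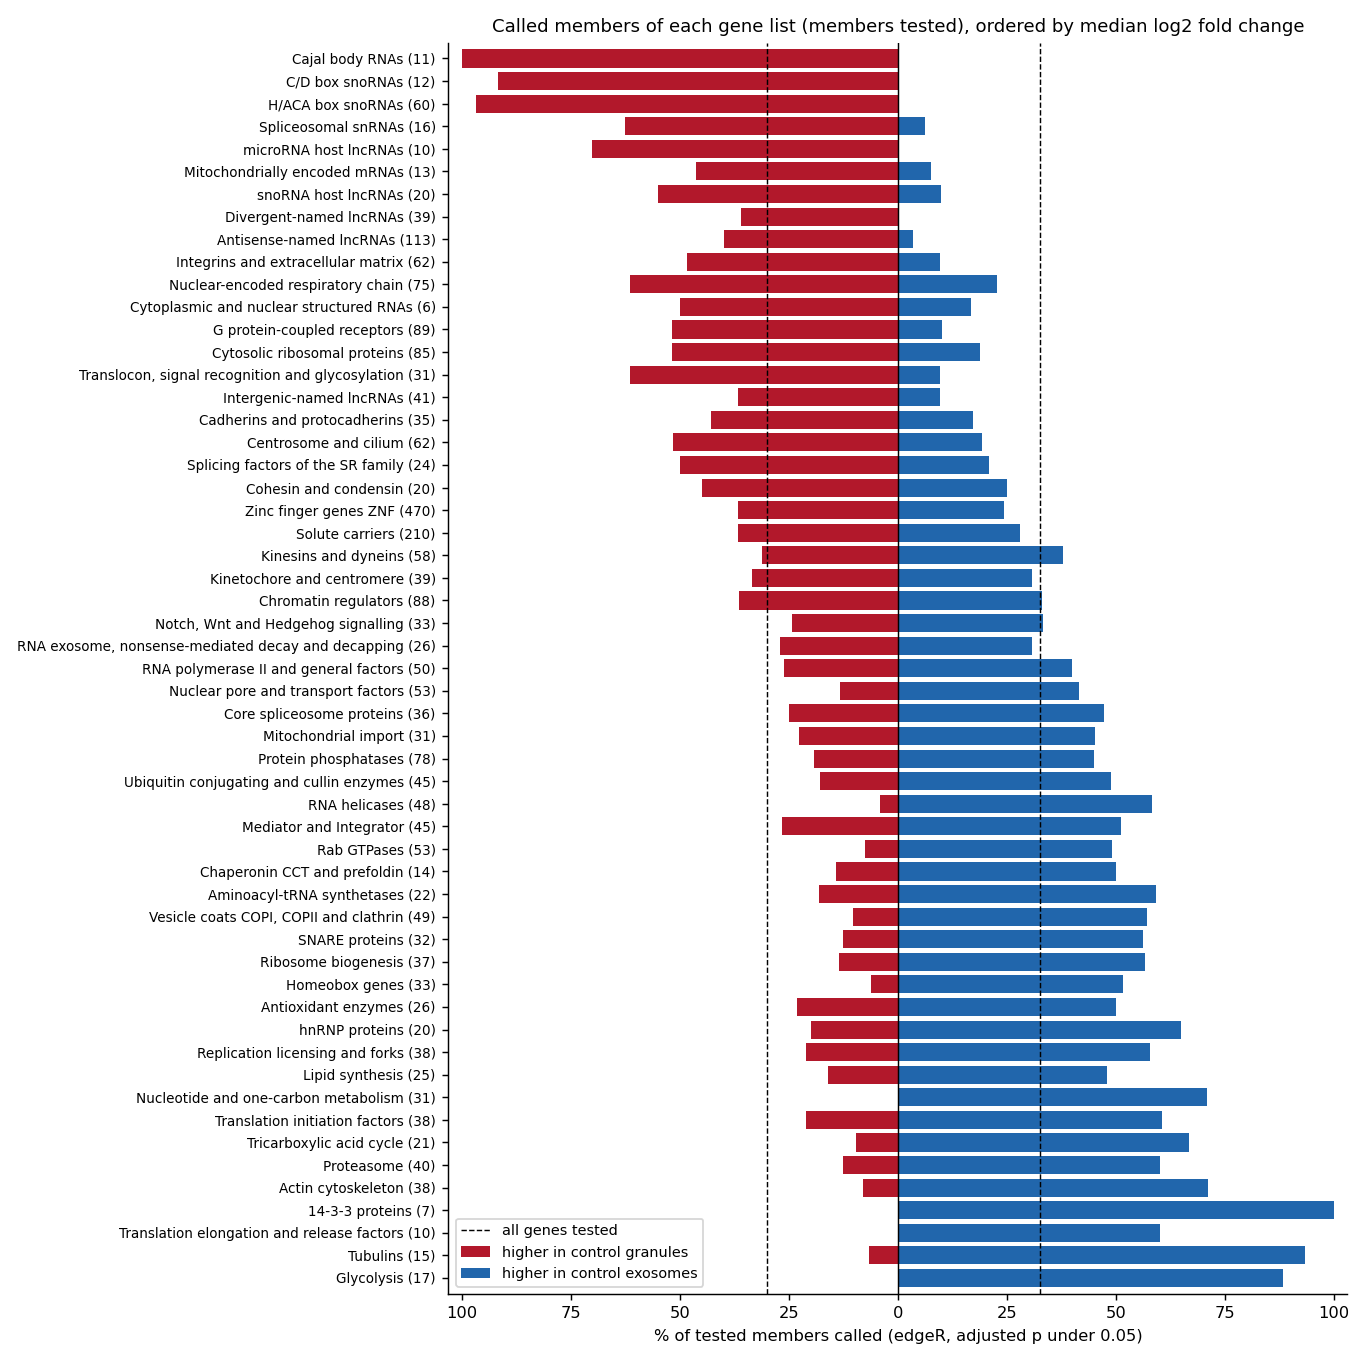
Percent of the tested members of each gene list that were called higher in control granules (red, to the left) or in control exosomes (blue, to the right), with the shares of all genes tested dashed at 30.0% and 32.5%. Lists run from guide RNAs at the top to glycolysis, with 0 of 17 higher in granules and 15 in exosomes, at the bottom.

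Most called lncRNA genes were higher in granules. Of 852 lncRNA genes, 395 were higher in granules and 40 in exosomes (median 1.28). Among lncRNAs grouped by their names, 45 of 113 antisense RNAs were higher in granules and 4 in exosomes, 14 of 39 divergent RNAs and 0, 15 of 41 intergenic RNAs and 4, and 7 of 10 microRNA host RNAs and 0. These lists held 1841, 589, 2264 and 73 genes. LncRNAs scarce in exosomes could pass the filter on low counts through the granule libraries alone. The counts and the median therefore describe the tested genes and support no direction for the class. The lncRNA share of named reads did not pass (adjusted p = 0.171, exact permutation test). MIR99AHG, the host of miR-99a, had 40.2, 39.9, 56.3, 61.1 and 61.0 CPM in granules, against 6.34, 4.60, 5.39, 6.51 and 7.38 CPM in exosomes (3.10 ± 0.20). Of 20 snoRNA host RNAs, 11 were higher in granules and 2 in exosomes, and SNHG1 stood at 3.04 ± 0.12 and GAS5 at 3.40 ± 0.14. Reads within a host can come from the host transcript or from the snoRNAs inside its introns.

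SnoRNAs guide methylation (box C/D) and pseudouridylation (box H/ACA) of ribosomal RNA in the nucleolus, and scaRNAs do so for snRNAs in Cajal bodies. Of the tested genes, 11 of 12 box C/D snoRNAs, 58 of 60 box H/ACA snoRNAs and 11 of 11 Cajal body RNAs were higher in granules, and 0 in exosomes. These lists held 282, 150 and 24 genes, and those scarce in exosomes could pass the filter on low counts through the granule libraries alone, so the counts describe the tested genes and support no direction for the class. Their medians were 5.46, 5.21 and 6.15, or 4.86 and 5.96 for the last pair of lists with 13 and 2 members that had no exosome read set to their bound. The 3 sequences shown are taken from the guide RNAs with the smallest p in their lists and show what such an RNA looks like. They come from GENCODE release 29 (GRCh38), with box C (TGATGA) near the 5′ end and box D (CTGA) near the 3′ end in capitals for both scaRNAs, and the ACA box near the 3′ end in capitals for SNORA63.
SNORA63: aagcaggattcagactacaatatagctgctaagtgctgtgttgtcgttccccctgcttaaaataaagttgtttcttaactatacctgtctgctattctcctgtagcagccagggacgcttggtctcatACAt
SCARNA5: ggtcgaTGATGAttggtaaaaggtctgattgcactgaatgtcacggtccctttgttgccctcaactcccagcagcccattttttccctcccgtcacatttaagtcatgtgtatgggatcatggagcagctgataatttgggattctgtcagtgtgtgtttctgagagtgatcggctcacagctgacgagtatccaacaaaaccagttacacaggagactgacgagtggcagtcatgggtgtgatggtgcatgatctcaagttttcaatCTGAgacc
SCARNA6: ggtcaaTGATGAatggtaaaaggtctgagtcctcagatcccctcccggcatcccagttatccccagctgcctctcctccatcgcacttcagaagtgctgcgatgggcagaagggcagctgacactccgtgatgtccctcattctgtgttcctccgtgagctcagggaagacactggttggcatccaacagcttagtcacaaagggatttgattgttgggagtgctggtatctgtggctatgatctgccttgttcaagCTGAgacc

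All 3 lie inside the span of another gene. SNORA63 (chromosome 3, 186787300 to 186787431, plus strand) lies within EIF4A2. SCARNA5 and SCARNA6 both lie within ATG16L1 on chromosome 2, at 233275727 to 233276002 and 233288676 to 233288940 of the plus strand. SCARNA5 had 1470, 1887, 1670, 1242 and 1528 CPM in granules 1 to 5, against 18.5, 15.6, 28.1, 15.1 and 14.4 CPM in exosomes 1 to 5 (6.41 ± 0.24, SE; edgeR adjusted p = 1.2e-08). SNORA63 had 163, 203, 291, 205 and 184 CPM in granules, against 2.88, 3.79, 5.39, 4.60 and 1.604 CPM in exosomes (5.85 ± 0.28). The surrounding gene EIF4A2, an mRNA helicase of translation initiation, differed far less, at 1.12 ± 0.12 on all transcripts and 0.09 on protein-coding ones.

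SCARNA6 averaged 229 ± 42.9 CPM in granules and 6.77 ± 1.81 in exosomes (5.08 ± 0.21). No library of the 3 guide RNAs came near the other fraction. Reads of such RNAs can also pass to unnamed entries of the same sequence, and that part was not tested.

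RNAs of the mitochondrial genome took 1.01% ± 0.30 of named reads in granules and 1.09% ± 0.91 in exosomes (p = 0.905, exact 2-sided permutation test), yet single mRNAs differed in both directions. MT-CO2, cytochrome oxidase subunit 2, had 5.00, 16.3, 10.03, 10.8 and 8.54 CPM in granules 1 to 5, against 120, 656, 1189, 257 and 196 CPM in exosomes 1 to 5 (-5.57 ± 0.66). MT-ND3, of complex I, had 182, 319, 420, 343 and 259 CPM in granules, against 16.4, 46.2, 110, 21.8 and 15.6 CPM in exosomes (2.86 ± 0.52). The neighbouring values did not overlap in either gene, while exosome 3 was the highest exosome library in both.

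MT-ATP6 stood at 3.29 ± 0.96 (adjusted p = 0.0552 with no filter on low counts) and MT-ND2 at 2.80 ± 0.61. MT-CO1, the most abundant by count, did not pass (-0.48 ± 0.44, 95% interval -1.33 to 0.38, adjusted p = 0.357). Of the 13 mRNAs, 6 were higher in granules and 1 in exosomes. Nuclear copies of mitochondrial genes and unnamed entries can share these reads.

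Base composition and length of a transcript moved with the contrast. In genes whose main coding transcript had under 40% GC, the median log2 fold change was 0.70, and 1008 of 1574 were higher in granules and 151 in exosomes. At 55% to 60% GC the median was -0.91, with 112 and 1040 of 1703. Spearman's rho of the fold change with GC content was -0.515 over 10950 genes, which are not independent replicates and share the libraries.

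Length showed no single slope (rho 0.084 over 11335 genes). The median was 0.79 up to 500 nt (203 genes), -0.48 at 2000 to 3000 nt (2278 genes) and 0.31 above 6000 nt (1532 genes). Both ends stood above the middle within each of 3 GC classes. Under 45% GC the medians were 1.36, 0.32 and 0.60 in those 3 length bins. At 45% to 55% GC they were 0.70, -0.58 and 0.05, and above 55% GC they were 0.27, -1.04 and -0.22. The part of GC content and length in the results of the gene lists was not tested.

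**Figure D5:**
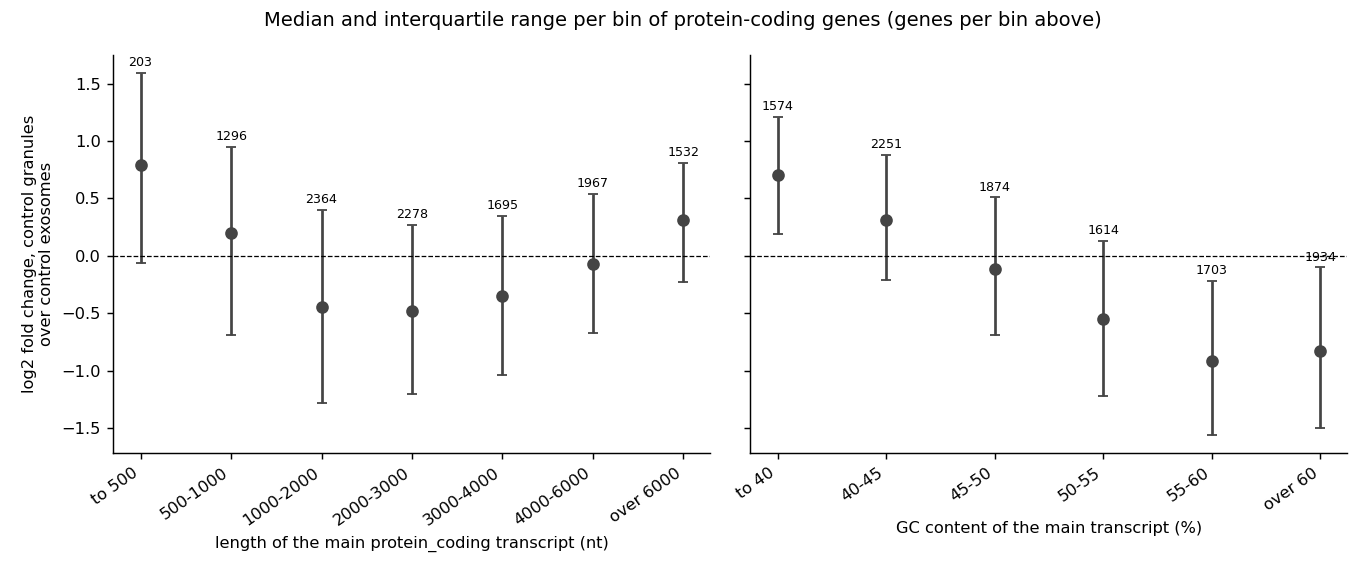
Median (point) and interquartile range (bars) of the log2 fold change of control granules over control exosomes (y axis) for protein-coding genes in bins of main-transcript length (left, nt) and GC content (right, percent), with the number of genes above each bar. Medians fall from 0.70 under 40% GC to -0.91 at 55% to 60% GC, and are highest for the shortest and the longest transcripts.

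Each list of markers of other cells summed below the HEK293 list in both fractions, and some lists differed between fractions. Single genes reached 114 CPM (HBG1, exosome 3) and 57.9 CPM (KRT1, exosome 5). Red blood cell markers summed to 11.3 to 39.0 CPM in granules and 82.1 to 295 CPM in exosomes, with 5 of 6 tested higher in exosomes. Platelet markers summed to 1.75 to 3.60 CPM in granules and 12.9 to 25.05 CPM in exosomes, keratinocyte markers to 1.35 to 2.98 and 7.77 to 99.9 CPM, and fibroblast markers to 3.25 to 12.6 and 16.5 to 43.1 CPM. Leukocyte markers were at 3.60 to 5.99 CPM in granules and 2.22 to 6.70 in exosomes, liver and serum markers at most at 4.51 CPM and endothelial markers at most at 4.02 CPM. Some defining genes of these cells were at 0 in all libraries of both fractions: AHSP, PPBP, GP9, CD3E, S100A9 and LORICRIN. PF4 was at 0 in granules and at most at 0.802 CPM in exosomes. The collagen COL1A2 is itself on the fibroblast list, and the part of such RNA in its difference was not tested. TUBB1, a tubulin gene on the platelet list, averaged 0.784 CPM in granules and 8.85 CPM in exosomes. The part of RNA from other cells was not tested there either.

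The same contrast in HD-induced cells rests on libraries not used above, 5 of HD granules and 4 of HD exosomes, with HD exosome 4 left out for its depth. It called 2918 of 16172 genes (18.0%). Of the 9150 genes called in control cells and also tested there, 8742 (95.5%) had the same sign. Called in both were 2543 genes, 27.6% of the calls in control cells and 87.1% of those in HD-induced cells, and 2542 of them had the same sign. Without HD exosomes 2 and 4 and HD granule 3, 5758 genes were called, and 4980 were called in both states (53.97% of the calls in control cells and 86.5% of those in HD-induced cells), 4979 with the same sign. HD exosome 2, which the main fit kept, had 86.6% of its reads on unnamed entries. In HD exosomes 1, 3 and 5 that part was 29.3% to 38.6%.

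Within genes, 758 of 4505 retained-intron units were called in HD-induced cells, and all 630 that were called in both states had the same direction. That agreement was not particular to retained introns. Over all types, 1198 of 16347 units were called in HD-induced cells, and 895 of the 897 called in both states had the same direction in HD-induced cells. The leading genes kept their direction there: RAB13 stood at -5.63 (adjusted p = 5.3e-06), NET1 at -3.64 (adjusted p = 8.8e-05), COX6A1 at 3.37 (adjusted p = 0.0084) and SCARNA5 at 6.92 (adjusted p = 0.0022). Among them MT-CO2, at -2.08, and BCL2L2, at -2.33, did not pass (edgeR adjusted p = 0.256 and 0.132). Some other genes named above, such as EEF2 at -1.20 (edgeR adjusted p = 0.252), also did not pass there.

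Finally, granule RNA was slightly more concentrated. The 100 genes with the most reads in each library took 17.5%, 22.7%, 22.8%, 23.02% and 21.9% of named reads in granules 1 to 5, against 19.4%, 18.4%, 19.6%, 19.0% and 18.9% in exosomes 1 to 5. Granule 1 was the lowest of all, and the other granule libraries were above every exosome library. The means were 21.6% ± 2.32 and 19.1% ± 0.46 (p = 0.0476, exact 2-sided permutation test). Leaving out any library but granule 1 ended the call (p up to 0.111 in exact permutation tests), and among protein-coding nuclear genes alone they were 17.3% and 16.5% (p = 0.492).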

How the data were processed

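A mirVana kit served to isolate total RNA, which was sequenced as stranded paired reads of 100 bases, per the labels' protocols. Per the submitters' processing notes, the authors used Trimmomatic, cutadapt, FastQC and Salmon on build GRCh38.p14, with versions not given in the sources used here. The deposited files give, for each of 251955 named transcripts and 669597 unnamed entries, an expected count (estimated reads, not whole) and a deposited TPM. Expected counts were summed per gene, per gene and transcript type, or kept per transcript, and rounded. Each table was filtered with filterByExpr, scaled with TMM and fitted with edgeR 4.0.16 (robust quasi-likelihood, R 4.3.3), and p-values were adjusted by Benjamini-Hochberg over the whole table. The SE is the log2 fold change divided by the square root of F. Shares were compared by exact 2-sided permutation over libraries.

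The 10 libraries, the lists and the tests were chosen with earlier results of these data known. Named genes were, per direction, the 12 called protein-coding genes with the largest change at 100 CPM or more and no overlap, up to 3 called members of each of 56 lists by p, and the 10 highest by TPM per fraction. Named transcripts and units were 8 per direction, transcripts at 50 CPM or more. Retained-intron units of genes named by another rule were added after their values were seen. Gene positions are RefSeq's, counted from 1. Replicates are called biological in the labels, but separate cultures are not stated, so p-values measure the spread between these libraries. On simulated counts the gene test recovered 69% of genes changed by 1 on the log2 scale and 94% of those changed by 2 (14390 genes, 12 false calls), and the unit test 43.9% of units changed by 2 and 94.9% changed by 4 (15331 units, 44 false calls). Per size, 100 genes or 98 units were changed, some up and some down, the units all being small parts of their genes. In the data 62.4% of genes were called, so these rates of recovery and false calls may not hold there. Other scalings, filters, tools, a replicate block and leaving out each library were tried. Some items are withheld and not reported here.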

Additional observations from a re-analysis of the deposited data

Results flagged for a closer look

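Among 262 sets of 5 libraries behind the values above, 19 held a library far from the other 4. Chance alone gives about 1 in 20 sets. Of the 19, 5 lay in exosome 3 and 4 in exosome 1.

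In granules, COX6A1 was low in library 1 (632 CPM, others 1310 to 1580), ARF1 low in library 5 (82.3 CPM, others 107 to 116) and RPL22L1 high in library 5 (154 CPM, others 87.2 to 102). Library 2 was high for MT1X (208 CPM, others 151 to 167), MT-CO1 (8730 CPM, others 3960 to 5000) and the retained-intron share of YARS1 (42.8%, others 30.4% to 33.4%). Processed pseudogenes took 0.276% of reads in library 4, others 0.224% to 0.231%. The top 100 genes took 17.5% in library 1, others 21.9% to 23.02%.

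In exosomes, library 1 was high for H3C2 (1040 CPM, others 635 to 680) and for the snRNA share (2.06%, others 1.12% to 1.27%), and low for NDUFB3 (40.7 CPM, others 49.03 to 51.7) and RFC2 (79.9 CPM, others 88.6 to 91.6). Library 3 was high for MT-ATP6 (105 CPM, others 0.923 to 22.0), MT-ND2 (228 CPM, others 22.7 to 54.5), RPS29 (105 CPM, others 91.1 to 93.7), the EIF3E unit with no defined reading frame (31.6%, others 8.78% to 14.2%) and the share of TEC transcripts, which await experimental support (0.0448%, others 0.0279% to 0.0319%). RPS27 was high in library 2 (213 CPM, others 119 to 144) and SREK1 in library 5 (124 CPM, others 93.8 to 102).

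Outside the named transcripts, unnamed entries held a mean of 37.6% of all reads in granules and 40.9% in exosomes.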

How the results depend on the processing

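The total number of calls stayed within 1.5 times of that reported under the other settings of the gene, transcript and within-gene tests. By direction it did not: 2389 genes were higher in granules by TPM with limma, as were 4918 transcripts with a replicate block and 12649 with DESeq2, and with no filter on low counts 1136 units, 73 of them retained-intron, were smaller in granules. Leaving out each library gave 8626 to 9544 genes, 11488 to 15201 transcripts, 2848 to 3877 units and 1672 to 2201 retained-intron units larger in granules. With a replicate block the counts were 9297 genes, 9547 transcripts and 3708 units. Same-numbered libraries did not deviate together (correlations 0.207, -0.176, -0.005, 0.000 and 0.229), so the numbers were not taken as pairs. Without genes whose retained-intron transcripts were found to lie over snoRNA genes, a choice made after seeing the data, 2081 retained-intron units were larger in granules.

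Of 14 transcript types, 7 passed by share of all reads and 5 by summed TPM, and 11 to 12 with a library left out. By summed TPM the differences of misc_RNA (-2.04 points), nonsense-mediated decay (-0.737), transcripts with no defined reading frame (-0.508) and transcribed unprocessed pseudogenes (-0.00702) turned. The cause was not tested. The top-gene difference was 1.74 points for 10 genes (p = 0.0556, exact permutation test), 0.769 for protein-coding nuclear genes (p = 0.492, exact permutation test) and 2.16 to 3.54 with a library left out. HD-induced cells gave 5758 called genes without HD exosomes 2 and 4 and HD granule 3. On protein-coding transcripts alone TAF1D (-1.85), RPL4 (0.80) and IARS1 (-0.80) turned. Of 1693 values of 100 named genes, 7 others kept their sign without passing. A change of sign where neither setting passed was not counted, so a kept sign is not shown for genes that did not pass, such as MT-CO1. The median of all genes was -0.25 by TPM. Exosome depth, 5.30 to 9.04 M named reads, limits what can be said of RNAs at 0 there.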
